A study of Mus musculus with 5 samples.

Results

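The prostaglandin and leukotriene genes described here are 10 rows of the count table, taken by their symbols: the cyclooxygenases Ptgs1 and Ptgs2, the terminal prostaglandin synthases Ptges and Hpgds, the leukotriene genes Alox5, Alox5ap, Lta4h and Ltc4s, and the prostaglandin E receptors Ptger2 and Ptger4. All 10 were found among 21289 genes, and all 10 passed the filter on low counts that left 14508 genes for testing. RNA came from CD45+CD64+ cells sorted from infarcted mouse hearts on day 7, in 3 samples (replicates 1 to 3) with curcumol, a plant sesquiterpene given by gavage at 30 mg/kg every day for 7 days, and in 2 samples (replicates 1 and 2) without it. Both groups were wild-type C57BL/6JGpt males with the same infarct operation. The labels name no vehicle, no age and no number of hearts behind a sample, so the p-values measure the spread between these samples, which may be partly technical. The series asks whether curcumol acts on the type I interferon response of macrophages through STING.

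Prostaglandins and leukotrienes are short-lived lipid signals made from arachidonic acid. Cyclooxygenases turn it into prostaglandin H2, which terminal synthases convert into single prostaglandins, and Ptgs2 is known as the form that macrophages induce in inflammation while Ptgs1 is expressed more steadily. In the leukotriene branch Alox5, helped by the membrane protein Alox5ap, makes leukotriene A4, from which Lta4h makes the neutrophil attractant leukotriene B4 and Ltc4s makes the cysteinyl leukotrienes. Macrophages carry both branches and respond to prostaglandin E2 through receptors that raise cyclic AMP.

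The start regions of Ptgs2, Ptger4 and Ptgs1 are shown because the first 2 had the lowest levels with curcumol relative to untreated samples among the 10 genes, and Ptgs1 is the steady counterpart of Ptgs2. They come from RefSeq on GRCm38.p6, a build that may not be the one used for the counts, and 9 of the 10 genes matched that table, all but Alox5ap. Each runs 5′ to 3′ on the gene's strand from 250 bases before the start to 30 bases after it, with motif matches in capitals. They lie at chr1:150099781-150100060 (plus strand), chr15:5244158-5244437 (minus strand) and chr2:36230176-36230455 (plus strand), in the order printed.
Ptgs2: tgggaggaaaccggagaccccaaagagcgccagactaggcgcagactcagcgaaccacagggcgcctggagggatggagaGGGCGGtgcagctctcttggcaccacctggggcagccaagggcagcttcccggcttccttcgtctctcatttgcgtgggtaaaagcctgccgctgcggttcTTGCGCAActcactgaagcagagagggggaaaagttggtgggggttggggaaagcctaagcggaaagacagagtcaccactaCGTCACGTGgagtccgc
Ptger4: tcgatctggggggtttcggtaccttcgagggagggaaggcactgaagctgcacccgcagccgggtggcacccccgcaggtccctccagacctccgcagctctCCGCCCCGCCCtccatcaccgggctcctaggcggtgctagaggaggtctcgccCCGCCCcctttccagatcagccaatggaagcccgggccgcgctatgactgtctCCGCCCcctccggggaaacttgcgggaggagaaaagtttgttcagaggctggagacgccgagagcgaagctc
Ptgs1: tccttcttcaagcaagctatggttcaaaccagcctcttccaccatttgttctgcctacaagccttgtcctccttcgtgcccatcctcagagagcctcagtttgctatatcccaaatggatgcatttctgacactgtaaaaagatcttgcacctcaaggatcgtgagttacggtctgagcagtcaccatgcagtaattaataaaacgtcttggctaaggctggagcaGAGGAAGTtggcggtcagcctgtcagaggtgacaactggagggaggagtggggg

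Motifs were searched on both strands in all 32851 start regions of the RefSeq table, cut to the same 280 bases. In Ptgs2 the capitals mark a GC box (GGGCGG, found in 34.7% of all regions) at -170 to -165 and a C/EBP-type match (TTGCNNAA, 10.4%) at -69 to -62. They also mark a pair of overlapping matches just after the start that RefSeq gives. These are the cAMP response element half-site TGACG (19.9%) read on the other strand at 14 to 18 and the E-box CACGTG (6.79%) at 17 to 22. In Ptger4 they mark 4 GC boxes, all read on the other strand and 2 of them sharing a base, between -148 and -37. In Ptgs1 they mark the PU.1-type motif GAGGAAGT (2.82%) at -24 to -17, which Hpgds also held at -49 to -42. TATAAA (13.1%), the AP-1-type motif TGANTCA (7.46%) and the NF-kB motif (7.94%) had no match in the windows of the 9 genes, and Ptgs2 was the gene among the 9 with TGACG or CACGTG. A match describes letters and shows no binding, and bases outside the windows were not searched.

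Levels below are CPM, counts scaled to a common library size with edgeR's TMM factors. Total counts were 39768705 to 41117439 in curcumol libraries and 41663017 and 43315822 in untreated libraries, but 17078 to 18501 genes had a count in curcumol libraries, against 12243 and 12915 in untreated libraries. The sorted cells carried macrophage genes: Lyz2 stood at 20527 to 24144 CPM in curcumol libraries and 24995 and 26055 CPM in untreated libraries. Fcgr1, which encodes CD64, stood at 249 to 329 CPM in curcumol libraries and 349 and 373 CPM in untreated libraries. Other macrophage genes went the other way: C1qb stood at 6448 to 7038 CPM with curcumol and at 6086 and 5997 CPM without it. C1qc stood at 4804 to 5767 CPM with curcumol and at 4720 and 4159 CPM without it. Of 12 macrophage markers 7 had positive and 5 negative log2 fold changes (median 0.20). Between groups 5 were higher and 4 lower without overlap, as were 44.4% of all tested genes in either direction. Counts behind the 10 genes were 84 to 29802 per library, so counting error was small except for Ptges, the least counted. In sorted bulk RNA, fewer cells of a type and less RNA per cell cannot be told apart.

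In edgeR (quasi-likelihood test, Benjamini-Hochberg adjusted p under 0.05) no pathway gene passed, as against 0.207% of all tested genes that did. At an unadjusted p under 0.05 there were 2, Ptgs2 and Ptger4, both lower with curcumol, as were 6.51% of all tested genes. DESeq2 and limma-voom each called these 2 as lower, beside 4.38% and 1.73% of all the genes they tested, and so did edgeR without a filter on low counts (0.502% of all genes). For 3 of 10 genes, Ptgs2, Ptger4 and Ptges, every curcumol library was lower than both untreated libraries, as for 14.9% of all tested genes in that direction and 44.4% in either. Of the 10 fitted log2 fold changes 7 were negative and 3 positive, with a median of -0.24, while all tested genes had a median of 0.15 and 42.9% of them were negative.

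**Figure D1:**
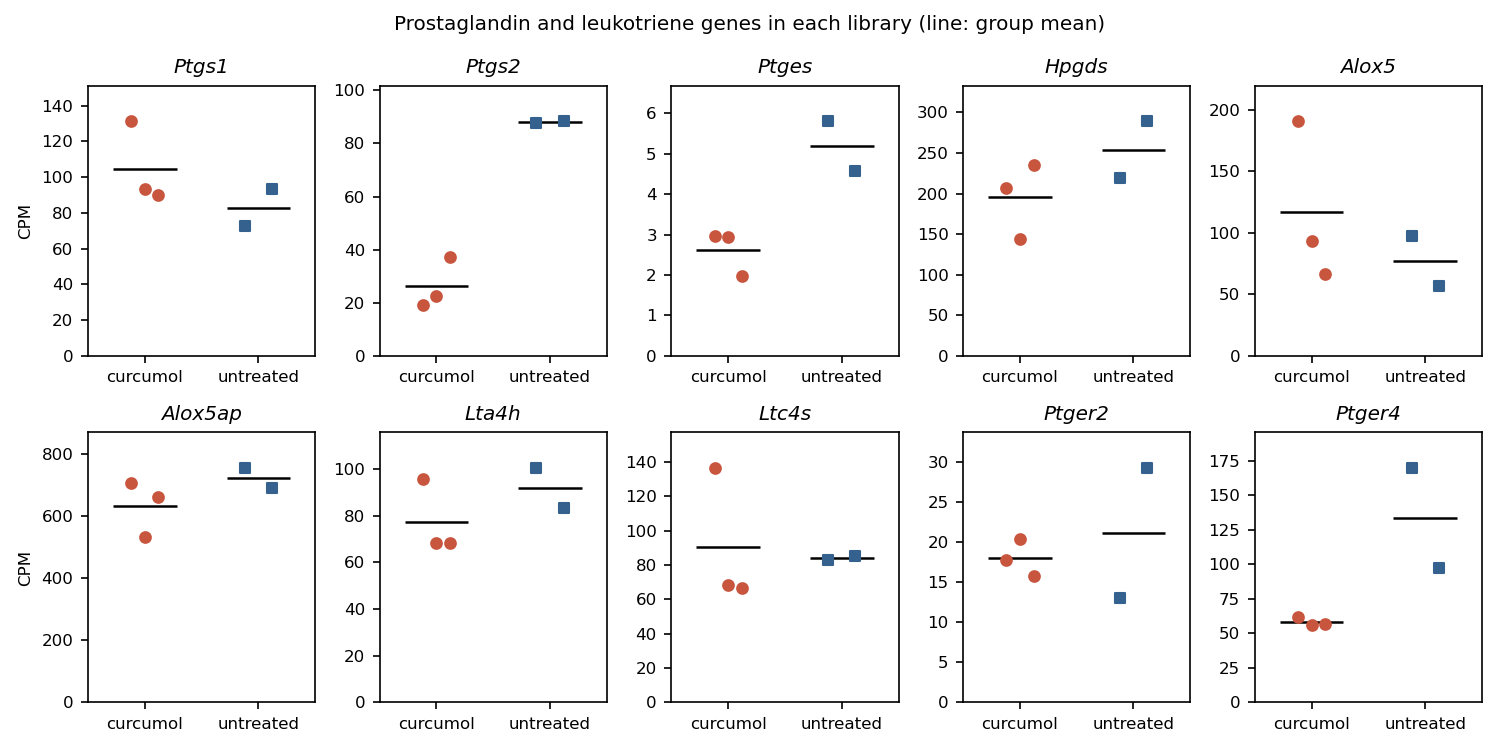
CPM of each of the 10 genes in every library (points, curcumol left and untreated right; lines are group means; each axis starts at 0). Ptgs2, Ptger4 and Ptges have curcumol libraries that all lie below both untreated libraries, and the other 7 genes have overlapping groups.

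Ptgs2, the inducible cyclooxygenase (NCBI gene 19225), stood at 19.4, 22.6 and 37.2 CPM in curcumol libraries and at 87.6 and 88.4 CPM in untreated libraries. The untreated libraries were nearly equal, and curcumol replicate 3 was the highest of its group but well below both untreated libraries. The mean of 26.4 ± 9.49 CPM with curcumol (SD, n = 3) was 3.34-fold lower than 88.0 ± 0.529 CPM without it (n = 2). The fitted log2 fold change was -1.74 ± 0.30 (SE), with a 95% interval of -2.47 to -1.01 and an adjusted p of 0.0644 in edgeR. Across 12 alternatives the log2 fold change lay between -2.07 and -1.54, and the adjusted p between 2.37e-05 (DESeq2) and 0.104 (without curcumol replicate 2). In edgeR without untreated replicate 1 it passed, at an adjusted p of 0.00700, as did 3.96% of all tested genes as lower, and without untreated replicate 2 at 0.00505 (4.44% of all as lower).

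Ptgs1, the other cyclooxygenase (NCBI gene 19224), stood at 131, 93.2 and 89.8 CPM in curcumol libraries and at 72.4 and 93.3 CPM in untreated libraries. Curcumol replicate 1 was the highest and the groups overlapped. Its log2 fold change of 0.34 ± 0.24 (95% interval -0.23 to 0.91, edgeR adjusted p = 0.448) did not pass. Both cyclooxygenases can be set against each other within a library, which leaves out the scaling between libraries. Per transcript length, the ratio of Ptgs2 to Ptgs1 was 0.0950, 0.156 and 0.266 in curcumol libraries and 0.779 and 0.610 in untreated libraries. The ratio was under 1 in all 5 libraries and its mean 4.03-fold lower with curcumol, without overlap. That Ptgs2 was below Ptgs1 in untreated replicate 1 rests on the transcript lengths, since with the union of exons they stood at 19.1 and 18.6 CPM per kilobase there. With 3 samples against 2 the smallest p of an exact permutation test is 0.1, and none is given.

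Ptges, the inducible microsomal prostaglandin E synthase that acts after Ptgs2 (NCBI gene 64292), stood at 2.96, 2.95 and 1.97 CPM in curcumol libraries and at 5.80 and 4.58 CPM in untreated libraries. These values rest on 84 to 130 counts with curcumol and 179 and 229 counts without it. The groups did not overlap, but the log2 fold change of -0.98 ± 0.64 (95% interval -2.53 to 0.57, edgeR adjusted p = 0.417) did not pass in edgeR or in any of the 12 alternatives. Hpgds, the hematopoietic prostaglandin D synthase (NCBI gene 54486), stood far higher in CPM, at 206, 144 and 235 CPM in curcumol libraries and 219 and 289 CPM in untreated libraries. Its groups overlapped, with a log2 fold change of -0.38 ± 0.25 (95% interval -0.98 to 0.22, edgeR adjusted p = 0.413).

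**Figure D2:**
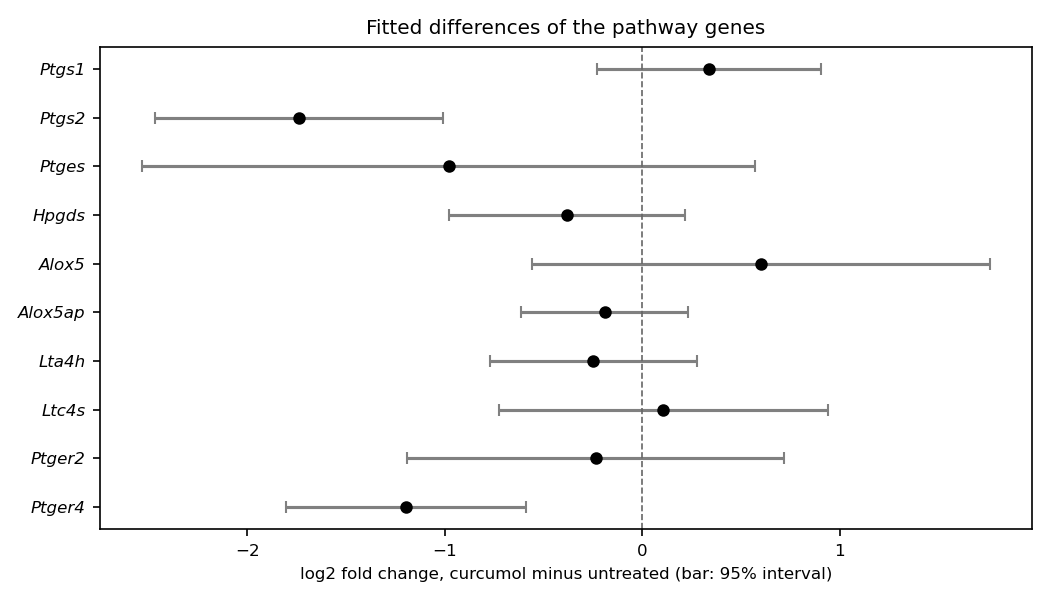
Fitted log2 fold change of each gene, curcumol minus untreated (points), with its 95% interval (bars) from edgeR. The intervals of Ptgs2 (-2.47 to -1.01) and Ptger4 (-1.81 to -0.59) lie below 0, and those of the other 8 genes include it.

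The 4 leukotriene genes had overlapping groups. Alox5, the lipoxygenase that starts the branch (NCBI gene 11689), stood at 191, 93.5 and 66.5 CPM in curcumol libraries and 97.5 and 56.6 CPM in untreated libraries. Curcumol replicate 1 was far above the other libraries. Its log2 fold change of 0.60 ± 0.48 (95% interval -0.56 to 1.76, edgeR adjusted p = 0.516) dropped to 0.06 when curcumol replicate 1 was left out and reached 1.05 when untreated replicate 1 was. Alox5ap, its membrane partner (NCBI gene 11690), stood at 705, 533 and 661 CPM in curcumol libraries and at 755 and 690 CPM in untreated libraries, with curcumol replicate 2 the lowest. The log2 fold change of Alox5ap was -0.19 ± 0.18 (95% interval -0.62 to 0.23, edgeR adjusted p = 0.582).

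Lta4h, the leukotriene A4 hydrolase (NCBI gene 16993), stood at 95.5, 68.3 and 68.4 CPM in curcumol libraries and 101 and 83.3 CPM in untreated libraries (log2 fold change -0.25 ± 0.22, 95% interval -0.77 to 0.28). Ltc4s, the leukotriene C4 synthase (NCBI gene 17001), stood at 137, 68.2 and 66.4 CPM in curcumol libraries and 82.8 and 85.0 CPM in untreated libraries (log2 fold change 0.11 ± 0.34, 95% interval -0.72 to 0.94). For Ltc4s the untreated libraries lay between the highest and the lower curcumol libraries, and its sign turned without curcumol replicate 1 (-0.31). Their adjusted p in edgeR were 0.561 and 0.898.

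Curcumol replicate 1 had the highest level of its group for 7 of the 10 genes: Ptgs1, Ptges, Alox5, Alox5ap, Lta4h, Ltc4s and Ptger4, though narrowly for Ptges (2.96 against 2.95 CPM in replicate 2). The same library had the highest summed level of the 10 resident macrophage markers, 6543 CPM, against 5187 and 3601 CPM in the other curcumol libraries and 2895 and 2667 CPM in untreated libraries. Its summed level of 16 neutrophil markers was 4154 CPM, against 1845 and 3402 CPM in the other curcumol libraries, and 768 and 608 CPM in untreated libraries. Of the 16 neutrophil markers 2 rose in edgeR, Ngp (adjusted p = 0.0147) and Camp (adjusted p = 0.0156), as did 10 of all 14508 tested genes. Ly6g did not pass (edgeR adjusted p = 0.0644). Camp and Ly6g were both at 0 CPM without curcumol. The 9 mast cell markers in the table summed to 66.9, 44.0 and 38.1 CPM in curcumol libraries and 13.96 and 18.3 CPM in untreated libraries, and 7 of the 9 had no count in either untreated library. Hdc, a histidine decarboxylase also known from other myeloid cells, made up 51.8, 38.4 and 36.0 CPM of the sums in curcumol libraries. Curcumol replicate 1 also held the mast cell proteases Cma1 at 5.28, Tpsb2 at 4.09 and Cpa3 at 2.37 CPM, each at most 0.227 CPM in the other libraries. Among curcumol libraries replicate 1 also had the highest sums of macrophage, monocyte and B cell markers. It did not for eosinophil, platelet, endothelial, fibroblast and mural, cardiomyocyte, dendritic cell, or T and NK cell markers. The part of these cell types in the levels of the pathway genes was not tested.

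Ptger4, the prostaglandin E receptor EP4 (NCBI gene 19219), stood at 61.8, 56.1 and 56.8 CPM in curcumol libraries and at 170.0 and 97.1 CPM in untreated libraries. The curcumol libraries were close together, and the untreated libraries both lay above them but far from each other. The mean of 58.2 ± 3.11 CPM with curcumol (SD, n = 3) was 2.29-fold lower than 134 ± 51.5 CPM without it (n = 2), with a log2 fold change of -1.20 ± 0.25, a 95% interval of -1.81 to -0.59 and an adjusted p of 0.0659 in edgeR. Untreated replicate 1 set much of the size: without it the log2 fold change was -0.73, and without untreated replicate 2 it was -1.52 and passed in edgeR (adjusted p = 0.00164). Across alternatives the adjusted p of Ptger4 lay between 0.000884 (DESeq2) and 0.261. GENCODE M21 places exons of Ttc33 on the opposite strand over 82 bases of Ptger4, and those of Gm15937 over 1015 bases. It is not settled whether reads were counted by strand, so reads there may not be told apart. Opposite-strand exons also lie over Ptgs1 (148 bases), Alox5ap (189 bases), Ltc4s (268 bases) and Ptger2 (144 and 246 bases). Of all these overlapping genes only Ttc33 has a row in the count table. Ttc33 itself had 1490, 1524 and 1394 counts in curcumol libraries and 1201 and 750 counts in untreated libraries.

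Ptger2, the related receptor EP2 (NCBI gene 19217), stood at 17.7, 20.4 and 15.8 CPM in curcumol libraries and at 13.1 and 29.3 CPM in untreated libraries. The untreated libraries spanned the curcumol libraries, and the log2 fold change of -0.24 ± 0.40 (95% interval -1.19 to 0.72, edgeR adjusted p = 0.787) was 0.48 without untreated replicate 2. Per transcript length, the ratio of Ptger4 to Ptger2 was 3.88, 3.06 and 3.99 in curcumol libraries and 14.5 and 3.69 in untreated libraries, so Ptger4 was the more abundant receptor in all 5 libraries and the groups overlapped in this ratio.

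Set against transcript length (CPM per kilobase of the longest coding transcript in GENCODE M21), the leukotriene partner Alox5ap led the pathway, at 506 ± 71.3 in curcumol libraries and 578 ± 36.7 in untreated libraries (SD, n = 3 and n = 2). Ltc4s came next, at 126 ± 55.9 and 117 ± 2.21 CPM per kilobase, then Hpgds, at 56.1 ± 13.3 and 73.1 ± 14.3 CPM per kilobase. These 3 genes held the same places in both groups, and their levels stood apart from one another. In curcumol libraries Alox5, Lta4h and Ptgs1 followed at 41.4, 38.1 and 36.5 CPM per kilobase, each overlapping with its neighbour among the 3. Alox5 also overlapped with Hpgds, at 67.6 against 59.3 CPM per kilobase in curcumol replicate 1. Ptger4 stood apart below Ptgs1, at 17.6 CPM per kilobase. Ptgs2 at 5.92 and Ptger2 at 4.88 CPM per kilobase overlapped, and Ptges was lowest at 0.721 CPM per kilobase.

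In untreated libraries Lta4h, Ptger4, Ptgs1 and Alox5 followed Hpgds at 45.3, 40.3, 28.9 and 27.3 CPM per kilobase, each overlapping with its neighbour in this order. Ptgs2 stood at 19.8, Ptger2 at 5.75 and Ptges at 1.42 CPM per kilobase, each apart from the next. With the union of all annotated exons as the length, a choice made after seeing the data, Lta4h moved from rank 4 to rank 8 in untreated libraries, Ptgs1 to rank 4 and Ptgs2 to rank 6, so the middle of this order rests on the transcript model.

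**Figure D3:**
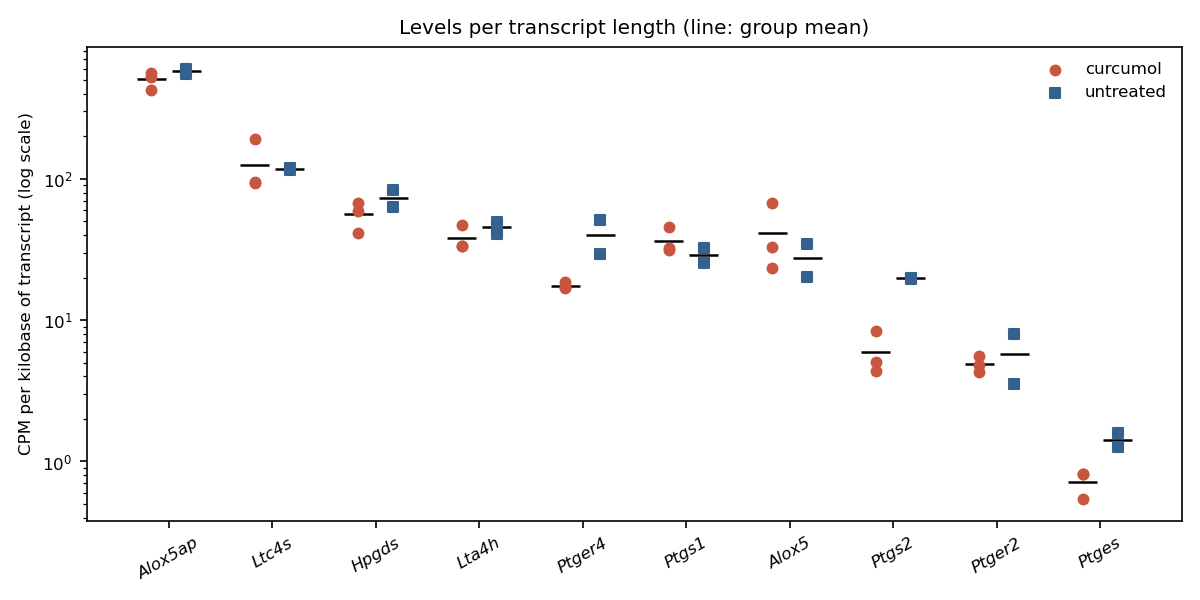
CPM per kilobase of the longest coding transcript (log axis) in each library, curcumol left of untreated for every gene, with lines at group means, ordered by the untreated mean. By group mean Alox5ap, Ltc4s and Hpgds lead in both groups, though Alox5 and Hpgds overlap with curcumol. Ptges is lowest, at 0.721 with curcumol and 1.42 without it.

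Around these 10 genes, 7 lists of further pathway genes held 97 symbols, of which 89 were in the table and 80 were tested. None passed in edgeR, where 12 higher and 15 lower genes had an unadjusted p under 0.05 (18.1% and 6.51% of all tested genes). DESeq2 called 12 higher and 12 lower and limma-voom 7 higher and 8 lower, while 16.9% and 11.4% of all genes they tested were called in either direction. In edgeR 44 of the 80 were positive and 36 negative. The lists were written with results of these data known, and no list was tested as a whole.

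Of 14 tested genes of arachidonate release and recycling, 8 had a negative and 6 a positive fold change. Their median was -0.12, and -0.19 over the 13 with a count in an untreated library. The most abundant, Pla2g7, which degrades platelet-activating factor, stood at 801 ± 54.9 CPM with curcumol and 776 ± 71.9 CPM without it. Lpcat3, which puts arachidonate back into phospholipids, stood at 53.2, 49.0 and 47.9 CPM in curcumol libraries and at 91.4 and 79.3 CPM in untreated libraries (log2 fold change -0.77 ± 0.17, edgeR adjusted p = 0.0669). The lysosomal phospholipase Pla2g15 went the other way, at 242 ± 5.66 and 177 ± 23.6 CPM (log2 fold change 0.45 ± 0.16, edgeR adjusted p = 0.140). Pla2g2d, a secreted phospholipase, stood at 8.27, 5.27 and 0.446 CPM in curcumol libraries and was without a count in both untreated libraries, which with 3 counts per library as the floor makes it at least 61.0-fold higher.

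Of the 8 other prostanoid synthases 5 were positive and 3 negative. Their median was 0.11, and 0.02 over the 7 with a count in an untreated library. Ptges2, a further prostaglandin E synthase, stood at 27.2, 23.8 and 25.3 CPM in curcumol libraries and at 41.8 and 46.4 CPM in untreated libraries, without overlap (log2 fold change -0.79 ± 0.20, edgeR adjusted p = 0.0768). Tbxas1, the thromboxane synthase and the most abundant of them, stood at 272 ± 44.6 CPM with curcumol and 357 ± 97.4 CPM without it, with overlap. Ptgds, the lipocalin-type prostaglandin D synthase, had at most 0.522 CPM with curcumol and no count without it, and the prostacyclin synthase Ptgis, known from vessel walls, stood at 1.77, 1.39 and 1.53 CPM with curcumol and at 0 and 0.153 CPM without it. Endothelial markers also had a higher sum with curcumol: the 11 on the list summed to 64.7, 111 and 82.7 CPM in curcumol libraries and 28.6 and 33.5 CPM in untreated libraries. Fabp4 alone made up 33.8, 66.6 and 48.7 CPM of these sums in curcumol libraries and 23.9 and 28.4 CPM in untreated libraries. Of the 11 endothelial markers 6, Cdh5 and Tie1 included, were at 0 in both untreated libraries, where fewer genes of the whole table had a count. Among curcumol libraries Ptgis was highest in replicate 1, where the endothelial sum was lowest. Fibroblast and mural markers summed to 150 to 363 CPM and 45.7 and 63.9 CPM. Of the 11 tested 3 rose in edgeR, where 10 of all 14508 tested genes were called higher. Their part in the low synthases was not tested.

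Prostaglandin breakdown and transport had 5 positive and 2 negative genes of 7 tested (median 0.42, but 0.07 if curcumol replicate 2 is left out). Hpgd, which inactivates prostaglandins, stood at 123, 80.8 and 39.2 CPM in curcumol libraries and at 57.9 and 33.2 CPM in untreated libraries, and the organic anion transporter Slco2b1 at 168, 189 and 80.4 CPM and 98.6 and 52.6 CPM. Both overlapped between groups and neither passed. The 4 tested genes on the list of other prostanoid receptors were all positive and rare. Among them was Ptgfrn, which encodes a regulator of the prostaglandin F receptor and is not itself a receptor. The median of the 4 was 1.12, and 0.76, the value of Ptgfrn, over the 3 with a count in an untreated library. Ptgir, the prostacyclin receptor, reached 7.10 CPM with curcumol and 5.22 CPM without it. The thromboxane receptor Tbxa2r had 0.430 to 1.55 CPM with curcumol and no count without it, at least 13.8-fold higher against the same floor.

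Among other lipoxygenases and leukotriene enzymes 9 were positive and 7 negative of 16 tested. Their median was 0.05, and -0.29 over the 12 with a count in an untreated library. Alox15, a lipoxygenase that oxygenates arachidonate at another carbon than Alox5, stood at 14.9, 13.6 and 12.5 CPM in curcumol libraries and at 33.9 and 33.6 CPM in untreated libraries. Its groups were each tight and well apart, with a 2.46-fold lower mean with curcumol (log2 fold change -1.30 ± 0.24, edgeR adjusted p = 0.0651). Dpep2, a dipeptidase that converts leukotriene D4 to E4, stood at 456 ± 83.6 and 691 ± 48.8 CPM (log2 fold change -0.60 ± 0.20, edgeR adjusted p = 0.122). Its relative Dpep1, with 5.78, 4.11 and 9.82 CPM in curcumol libraries and no count in untreated libraries, was at least 86.0-fold higher against the floor, and the glutathione transferase Mgst2 and the peptidase Ggt1 had the same pattern at under 3 CPM.

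Receptors for leukotrienes and other lipid mediators split evenly, 5 positive and 5 negative of 10 tested. Their median was 0.18, and -0.02 over the 9 with a count in an untreated library. The leukotriene B4 receptor Ltb4r1 stood at 74.3, 30.8 and 34.8 CPM in curcumol libraries and at 87.2 and 87.3 CPM in untreated libraries (log2 fold change -0.90 ± 0.39, edgeR adjusted p = 0.217). Cysltr1, a receptor of the cysteinyl leukotrienes, overlapped, at 97.1 ± 44.9 and 113 ± 15.7 CPM. Fpr2, a formyl peptide receptor that also binds lipoxin A4, went the other way, at 26.4, 16.5 and 21.8 CPM in curcumol libraries and 8.62 and 6.498 CPM in untreated libraries (log2 fold change 1.51 ± 0.36, edgeR adjusted p = 0.0729). Neutrophils carry Fpr2 too, and the neutrophil markers given above were higher in the same libraries; their part in Fpr2 was not tested.

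Genes known to respond to or act in the cyclic AMP signal below EP2 and EP4 had 11 negative and 10 positive fold changes of 21 tested (median -0.06), and at an unadjusted p under 0.05 there were 8 lower and 1 higher (6.51% and 18.1% of all tested genes). Nr4a1, an immediate early nuclear receptor, stood at 173, 91.1 and 301 CPM in curcumol libraries and at 1406 and 1290 CPM in untreated libraries, 7.15-fold lower (log2 fold change -2.84 ± 0.46, edgeR adjusted p = 0.0637). Crem, a cyclic AMP response repressor, stood at 24.3, 17.5 and 15.4 CPM and 50.4 and 48.9 CPM, and the phosphodiesterase Pde4b at 106, 94.2 and 117 CPM and 175 and 246 CPM in the same order of groups. Dusp1, a MAP kinase phosphatase, stood at 4038 ± 979 CPM with curcumol and 10769 ± 491 CPM without it, and Rgs2, a brake on G protein signals, at 446 ± 122 and 988 ± 116 CPM. These 5 genes had groups without overlap and adjusted p between 0.0637 and 0.0659 in edgeR. Adcy7, an adenylyl cyclase that makes cyclic AMP, went the other way without overlap, at 117, 168 and 129 CPM in curcumol libraries and 56.3 and 74.4 CPM in untreated libraries (log2 fold change 1.08 ± 0.23, edgeR adjusted p = 0.0665).

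Ptgs2, Nr4a1 and Dusp1 are immediate early genes, and a list of 19 others that cell isolation from tissue can induce, among them Fos, Junb and Zfp36, had a lower sum in the same libraries. Their summed level was 14974, 10163 and 17854 CPM in curcumol libraries and 33547 and 34753 CPM in untreated libraries. Of these 19 genes 17 were negative (median -0.92), as were 42.9% of all tested genes, and 15 had lower curcumol libraries without overlap, as had 14.9% of all. In edgeR 1 of them, Hspa1a, fell (0.207% of all tested genes were called), and none was at 0 in any library. Jun and Ier2 overlapped between groups, and so did Btg2 and Hspb1, whose fold changes were positive (0.16 and 0.31). Among curcumol libraries replicate 3 had the highest sum and the highest Ptgs2, but replicate 1 had a higher sum than replicate 2 and a lower Ptgs2 (19.4 against 22.6 CPM). Ptger4 was highest in replicate 1. The part of cell isolation in the levels of Ptgs2 and Ptger4 was not tested.

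**Figure D4:**
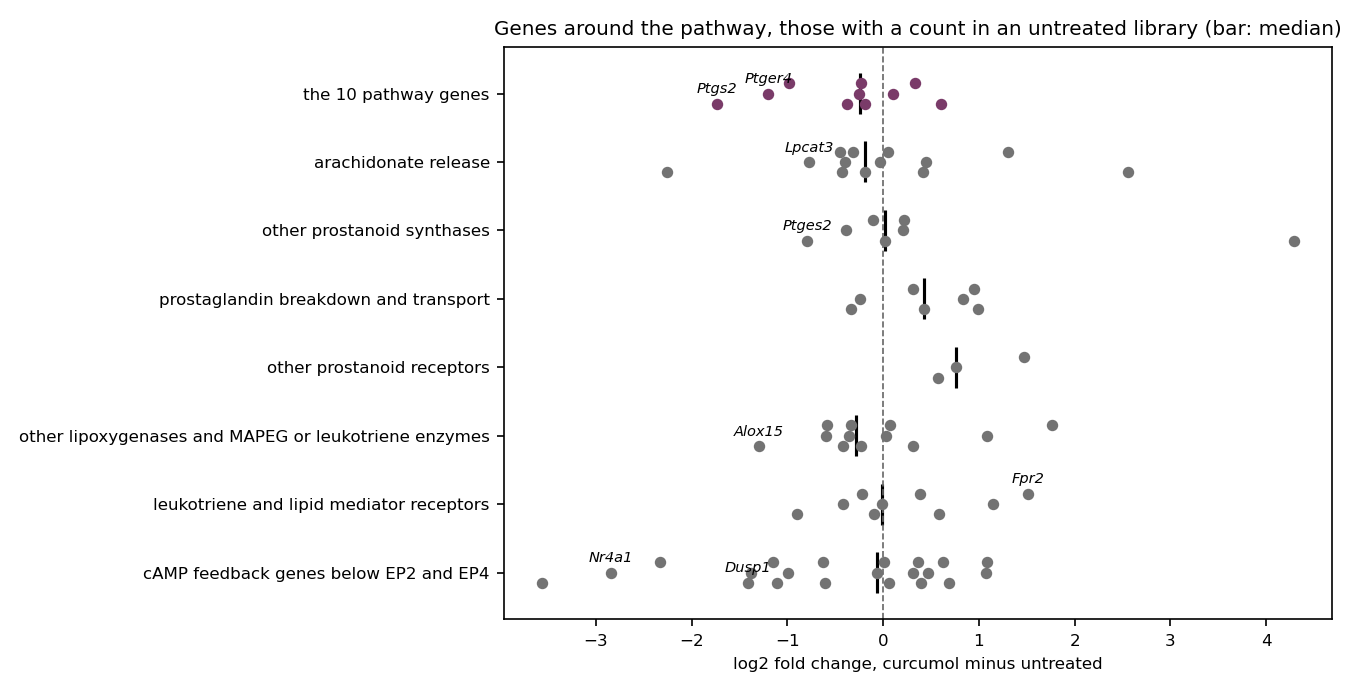
Fitted log2 fold change (curcumol minus untreated) of the 10 pathway genes in the top row and of the tested genes of 7 further lists that had a count in an untreated library (points), with row medians (bars). The pathway genes run from -1.74 for Ptgs2 to 0.60 for Alox5, and the cyclic AMP row includes Nr4a1 at -2.84.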

How the data were processed

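Messenger RNA of CD45+CD64+ cells from infarcted mouse hearts was compared between 3 samples with and 2 without curcumol. The deposited values were raw whole-number counts for each gene. fastp, HISAT2, HTSeq and Bowtie2 are named without versions, per the submitters' processing notes. The genome build or annotation was not given in the sources used here. Per the labels' protocols the library kit was a VAHTS one and per the design text a stranded TruSeq one. Titles gave groups and replicate numbers, which are not stated to pair samples.

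Genes were tested over the whole table with two-sided quasi-likelihood tests of edgeR 4.0.16 under R 4.3.3, after filterByExpr at a minimum count of 10 and TMM scaling. Group was the only term, which left 3 residual degrees of freedom, and Benjamini-Hochberg adjusted p under 0.05 counted as called. Each SE was the fold change over the root of its F statistic, and the fit was tested on simulated data. A floor of 3 counts was 0.0760 and 0.0767 CPM in untreated libraries. Floors and bounds cover counting error only. Alternatives were DESeq2 1.42.0, limma-voom (limma 3.58.1), other scaling factors and filters, a replicate block and leaving out each sample. The members and lists were chosen with earlier results of these data known. Named were all members. From each further list genes were taken among those past the threshold, with the smallest p or the highest level, and from marker lists among the highest. Not every gene that met this rule is named. Fcgr1, Camp, Ly6g, Cdh5, Tie1, Hspa1a, Jun, Ier2, Btg2, Hspb1, Tpsb2, Cpa3, Adcy7 and Ttc33 were chosen after their values were seen.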

Additional observations from a re-analysis of the deposited data

How the results depend on the processing

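The number of genes called among all those tested, 30, was 2656 with DESeq2, 1661 with limma-voom, 416 without a filter on low counts, 98 with a CPM of at least 1 in 2 samples and 10 with total counts, and from 0 (without curcumol replicate 2, where 2383 had an unadjusted p under 0.05) to 3531 (without untreated replicate 2) on leaving out a sample; the cause was not tested. Of the 10 pathway genes, none called at first, 2 (Ptgs2 and Ptger4) were called with DESeq2, limma-voom or no filter, and 0 to 2 on leaving out a sample: Ptgs2 alone without untreated replicate 1, and both without untreated replicate 2. Those fits leave 1 untreated sample, which is assumed to vary like the curcumol samples. Of the further pathway genes, none called at first, 24 were called with DESeq2, 15 with limma-voom, 6 without a filter, 1 with the CPM filter, 1 under a replicate block, and 0 to 23 on leaving out a sample. On leaving out a sample the log2 fold change of Ltc4s ran from -0.31 (without curcumol replicate 1) to 0.29, and that of Ptger2 from -0.70 to 0.48 (without untreated replicate 2); the other 8 genes kept their sign in all 12 alternatives. With the replicate block 45 genes and none of the 10 pathway genes were called, and deviations of same-numbered samples correlated at 0.026 and -0.027, so the numbers were not taken as pairs. Of the medians of the 7 further lists over these alternatives, 18 moved by more than their spread and 10 changed sign. Total counts as the scaling moved the median of all genes from 0.15 to 0.34. With 2 untreated samples the spread within that group is poorly known.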
